A study of Mus musculus with 28 samples.

Results

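The genes described here are 5 members of the STAT family, Stat3, Stat5b, Stat5a, Stat6 and Stat2, and Irf9, which encodes the DNA-binding partner of STAT2. These 6 genes were taken by name from a table of 55487 genes and were followed over all 28 libraries of the study. Messenger RNA on ribosomes was purified from the hypothalamus of LepRbeGFP-L10a mice, in which cells with the long leptin receptor LepRb carry an eGFP-tagged ribosomal protein L10a, and sequenced. Each of 14 lysates gave 1 bead library, from the tagged ribosomes, and 1 depleted library, from the RNA left in the supernatant. All groups carried the tag, controls included, and all mice were 10 to 13 weeks old, of mixed sex, and without food from the start of the light phase. They received metreleptin, a recombinant leptin, at 5 mg/kg into the peritoneum, or vehicle, which the protocol calls saline and the treatment labels call PBS. Wild-type (WT) mice were studied at 3 h (4 vehicle and 3 leptin lysates) and at 10 h (1 vehicle and 3 leptin lysates). Mice that were also Lepob/ob, here ob/ob, lack functional leptin and were studied at 10 h (2 vehicle lysates and 1 leptin lysate). Each of these 3 combinations of genotype and time was sequenced in a run of its own, so genotype, time and run cannot be told apart across them, while leptin and vehicle were compared within a run. The sources used here do not say if a lysate held 1 mouse or several, and p-values measure the spread between lysates.

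STAT proteins are latent transcription factors that are phosphorylated by JAK kinases at activated cytokine receptors, pair up and move to the nucleus. LepRb signals through JAK2 and activates mainly STAT3, which drives Socs3, and also STAT5. STAT5A and STAT5B transmit growth hormone and prolactin signals, STAT6 those of interleukin 4 and interleukin 13, and STAT2 joins IRF9 and a second STAT protein in ISGF3, the complex that switches on interferon-stimulated genes.

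Libraries held between 21277982 and 42267040 counts in beads and between 19649105 and 41804049 in the depleted fraction. All 12 markers of LepRb neurons were higher in beads (median log2 fold change 2.96), and their summed level was 1970 to 3600 CPM (counts scaled to the library total and its TMM factor) in bead libraries against 152 to 648 CPM in depleted ones. None of the 12 markers each of astrocytes, oligodendrocytes and microglia was at 0 in the beads, and the mean log2 CPM of these 36 markers, called the glial index below, lay between 3.51 and 5.26 in beads and between 5.45 and 6.02 in depleted libraries. WT 3 h vehicle lysate m3 and WT 3 h leptin lysate f2 were rich in pituitary transcripts, with pituitary markers summing to 70.5 and 1300 CPM in their bead libraries. The single ob/ob leptin lysate also held some, with 27.4 CPM in its bead library and 147 CPM in its depleted one, where the ob/ob vehicle lysates had at most 1.79 and 3.48 CPM. Counts per library ran from 1328 to 9999 for Stat3, 1129 to 3658 for Stat5b, 139 to 1683 for Irf9, 264 to 851 for Stat2, 136 to 461 for Stat6 and 53 to 201 for Stat5a. All 6 genes passed the filter on low counts, at least 10 counts in at least 3 libraries, in every comparison.

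Stat5b (ENSMUSG00000020919; GRCm38 chromosome 11, 100780731 to 100850724, minus strand), Stat5a (ENSMUSG00000004043; 100859351 to 100885169, plus strand) and Stat3 (ENSMUSG00000004040; 100885098 to 100939540, minus strand) lie side by side. Stat6 (ENSMUSG00000002147; 127642986 to 127660957, plus strand) and Stat2 (ENSMUSG00000040033; 128270559 to 128292849, plus strand) lie on chromosome 10, and Irf9 (ENSMUSG00000002325; 55603571 to 55610030, plus strand) on chromosome 14. The 3′ ends of Stat3 and Stat5a share 72 exon bases on opposite strands, 0.76% of the exon bases of Stat3 and 1.01% of those of Stat5a. Stat6 shares 40 exon bases (0.91%) with Nab2 on the other strand, and Irf9 shares 123 (2.28%) with the ubiquitin ligase gene Rnf31 on the same strand. The library kit named in the protocol does not mark strand, so reads from these shared bases cannot be assigned to 1 of the genes. Stat2 and Stat5b overlap no other gene.

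The promoters of Stat3, Stat2 and Irf9 are shown because Stat3 and Irf9 are the genes that moved with leptin below, and because STAT2 and IRF9 act in 1 complex. RefSeq (GRCm38.p6) gave 9 promoter windows for the 6 genes, each from 250 bases before to 50 bases after a start site. They were searched on both strands for the site bound by STAT dimers, GAS (TTCNNNGAA), its form with a wider gap (TTCNNNNGAA) and the ISGF3 site ISRE (GAAANNGAAA). Of 32817 promoter windows of this length, 8.29%, 6.94% and 3.43% held these patterns. The first 2 sequences below are the 250 bases upstream of the start site, read 5′ to 3′ on the strand of the gene, and the third is a 30-base stretch around the start site of Irf9; capitals mark the matches.
Stat3 promoter, chr11:100939541-100939790, minus strand: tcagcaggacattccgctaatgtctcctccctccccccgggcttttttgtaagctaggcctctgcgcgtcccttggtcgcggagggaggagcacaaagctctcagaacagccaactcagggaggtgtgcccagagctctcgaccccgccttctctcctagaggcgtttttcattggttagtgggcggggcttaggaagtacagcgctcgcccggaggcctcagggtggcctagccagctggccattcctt
Stat2 promoter, chr10:128270248-128270497, plus strand: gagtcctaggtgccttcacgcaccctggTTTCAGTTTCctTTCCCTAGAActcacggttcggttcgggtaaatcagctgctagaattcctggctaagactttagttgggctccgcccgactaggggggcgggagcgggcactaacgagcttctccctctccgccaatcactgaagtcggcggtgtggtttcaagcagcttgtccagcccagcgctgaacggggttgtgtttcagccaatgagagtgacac
Irf9 start site, chr14:55603976-55604005, plus strand: ggagataaccTTCCTGGGAAccagacacgg
Stat2 held an ISRE match (TTTCAGTTTC, positions -222 to -213 from the start site) and beside it a wide GAS match (TTCCCTAGAA, positions -210 to -201). The wide GAS match of Irf9 (TTCCTGGGAA) lies at bases 2 to 11 of the transcript. The windows of Stat3, Stat5a, Stat5b and Stat6 and the other window of Irf9 held none of these patterns. A match is a description of the sequence and says nothing of binding.

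Stat3, which carries the main transcriptional signal of LepRb, was the most abundant member per length in the bead RNA of WT mice. In the remaining RNA Stat5b was the most abundant per length. In the 4 WT 3 h vehicle lysates, per-length levels (CPM per kilobase of exon) in beads were 19.3 ± 2.24 for Stat3 (SD, n = 4) and 15.8 ± 0.913 for Stat5b. Irf9 followed with 4.28 ± 0.818, Stat2 with 3.10, Stat6 with 1.85 and Stat5a with 0.694. The ranges of Stat3 (17.3 to 22.0) and Stat5b (15.1 to 17.1) did not overlap, while those of Irf9 (3.36 to 5.20) and Stat2 (2.53 to 3.79) did. In the depleted fraction of the same lysates the order was Stat5b (12.2), Stat3 (7.19), Stat2 (3.14), Stat6 (2.11), Irf9 (2.10) and Stat5a (0.450), with the ranges of Stat6 and Irf9 overlapping. Stat5a, whose protein closely resembles that of Stat5b, was thus the lowest of the 6 in both fractions. Length here is the merged exon bases of all annotated transcripts, such as 9527 for Stat3, 5539 for Stat5b and 5386 for Irf9. The order between genes depends on it. By CPM alone, these depleted libraries had means of 68.5 for Stat3, 67.8 for Stat5b, 18.6 for Stat2, 11.3 for Irf9, 9.29 for Stat6 and 3.21 for Stat5a.

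Beads and depleted libraries of the same lysate were compared to ask which members are higher in RNA on the tagged ribosomes of LepRb cells. Over 14 lysates, bead libraries held 2.81 times as much Stat3 (log2 fold change 1.49, SE 0.139, adjusted p = 1.01e-07, edgeR with the lysate as a block), with bead-to-depleted ratios from 1.28 to 4.27 and a median of 2.91. Irf9 was 2.29-fold higher (1.20, SE 0.141, adjusted p = 1.04e-06), with ratios from 0.941 to 3.79. These 2 genes had the highest median ratios of the 6. Stat5a was 1.55-fold higher (0.63, SE 0.104, adjusted p = 1.40e-05; 13 of 14 lysates) and Stat5b 1.30-fold higher (0.38, SE 0.0385, adjusted p = 2.14e-08; 14 of 14 lysates). Stat6 was 1.18-fold lower in beads (-0.24, SE 0.0648, adjusted p = 0.00212), with a ratio above 1 in 1 of 14 lysates. Stat2 did not pass (0.00, SE 0.0586, adjusted p = 0.961), with ratios from 0.785 to 1.23 and 7 of 14 above 1. So 4 members were higher and 1 was lower in beads, against 77.9% of all genes called in either direction, 38.6% higher and 39.3% lower. With library totals in place of TMM scaling, which moves the median of all genes by -0.18, Stat2 stood at -0.17 (adjusted p = 0.0158). In bulk libraries, fewer cells of a type and less RNA per cell cannot be told apart. Beads hold RNA on ribosomes and depleted libraries the RNA left over, so cell type and ribosome binding cannot be told apart either.

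**Figure D1:**
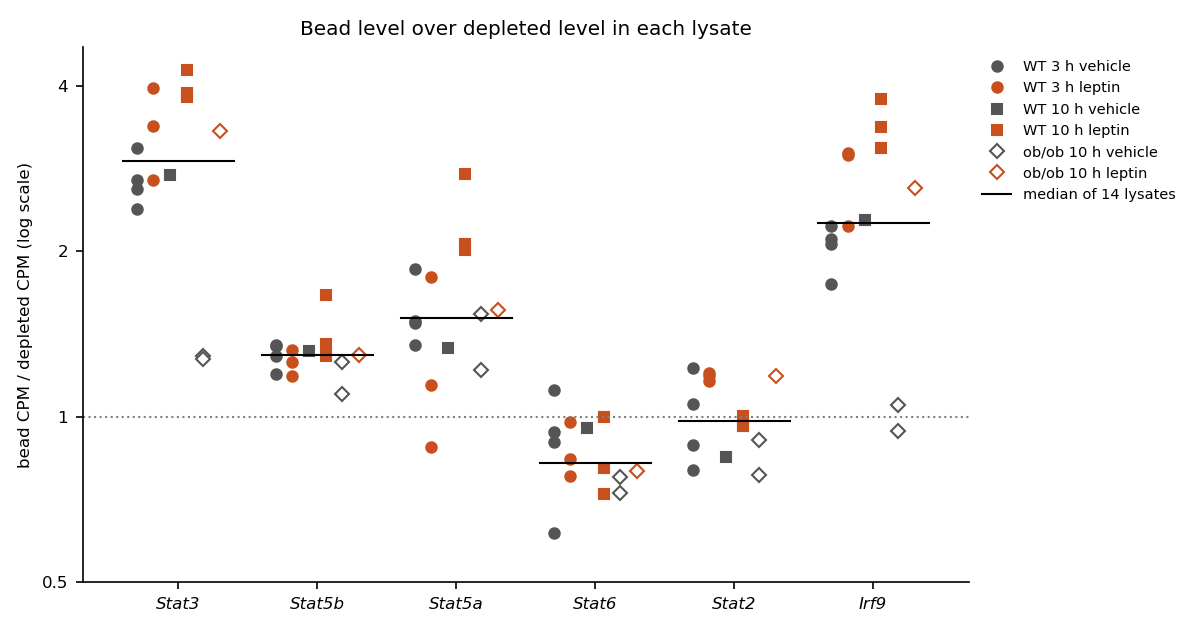
Bead CPM divided by depleted CPM (log scale) in each of 14 lysates for the 6 genes; circles are WT 3 h, squares WT 10 h, open diamonds ob/ob 10 h, grey vehicle and orange leptin, with a line at the median of all lysates. The 2 ob/ob vehicle lysates sit at 1.28 and 1.29 for Stat3 and at 0.941 and 1.05 for Irf9, below all others.

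The excess of Stat3 and Irf9 in beads was then fitted in each group. For Stat3 it was 1.42 on the log2 scale in WT vehicle mice at 3 h (ratios 2.38 to 3.08), 1.73 with leptin at 3 h, 1.46 in the WT vehicle lysate at 10 h and 1.99 with leptin at 10 h (ratios 3.82 to 4.27). In ob/ob mice it was 0.36 with vehicle (adjusted p = 0.0287) and 1.72 with leptin. Irf9 had 1.02, 1.45, 1.19 and 1.76 in the same 4 WT groups, -0.01 with vehicle in ob/ob mice (SE 0.146, adjusted p = 0.954) and 1.38 with leptin. The share of all genes called in these 6 groups, in the order given, was 52.8%, 50.0%, 30.8%, 64.2%, 31.6% and 26.0%, against 4, 3, 3, 4, 1 and 2 of the 6 members. The Stat3 call in ob/ob vehicle lysates ended with library totals (0.22, adjusted p = 0.117) and when either of them was left out (adjusted p = 0.253 without lysate 1 and 0.149 without lysate 2). A direct test of the bead excess, ob/ob vehicle minus WT vehicle at 10 h, gave -1.10 for Stat3 (SE 0.2, adjusted p = 0.326) and -1.20 for Irf9 (SE 0.236, adjusted p = 0.562). No member and 0.0102% of all genes passed in edgeR, and 2 members had an unadjusted p under 0.05. DESeq2 called 1 member among 3 genes in all, and limma voom no member. Stat3 passed without WT 3 h leptin lysate f2 (adjusted p = 0.0418). For leptin lysates the same difference was -0.27 for Stat3 and -0.38 for Irf9, with no member called by edgeR, none at an unadjusted p under 0.05, and 0.0% of all genes called.

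Leptin was compared with vehicle within each genotype and time, first in beads. Stat3 in WT 3 h vehicle beads was at 165, 168, 193 and 210 CPM in lysates f1, m1, f3 and m3, and in leptin beads at 223, 252 and 273 CPM in lysates f2, m24 and f4. At 10 h the WT vehicle library had 178 CPM and the leptin libraries 258, 262 and 320 CPM. In ob/ob beads, vehicle libraries had 81.6 and 83.3 CPM and the leptin library 250 CPM. All 7 leptin libraries thus lay above all 7 vehicle libraries, which held for 0.148% of the genes tested. The ob/ob leptin library lay within the range of the WT leptin libraries of both times, but below all WT leptin libraries at 10 h. In the depleted fraction Stat3 stayed between 63.4 and 82.7 CPM in all 14 libraries, and the vehicle (63.4 to 71.7 CPM) and leptin (66.7 to 82.7 CPM) ranges overlapped.

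Irf9, which gives ISGF3 its DNA contact, had 18.1, 20.9, 25.2 and 28.0 CPM in WT 3 h vehicle beads, in lysates f1, f3, m3 and m1, and 24.1, 34.5 and 35.1 CPM with leptin, in lysates f2, f4 and m24. The 2 arms overlapped at 3 h through leptin lysate f2. The 3 h titles carry a letter, m or f, in both arms: among f lysates both leptin values (24.1 and 34.5 CPM) lay above both vehicle values (18.1 and 20.9 CPM), and the m leptin value (35.1 CPM) lay above those of m vehicle lysates (25.2 and 28.0 CPM). This use of the letter was added after seeing the data. With so few libraries per letter it cannot decide if the arms differ, and the share of all genes with such a split was not counted. At 10 h the WT vehicle library had 23.5 CPM and the leptin libraries 37.4, 39.5 and 43.5 CPM. In ob/ob beads Irf9 had 6.97 and 9.95 CPM with vehicle and 31.9 CPM with leptin. These 2 vehicle libraries were the lowest of all 14 bead libraries for Irf9. In the depleted fraction Irf9 was between 6.63 and 13.6 CPM in all groups.

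Over all bead libraries, the other 4 members overlapped between the arms, as did Irf9 (6.97 to 28.0 CPM with vehicle and 24.1 to 43.5 CPM with leptin). Stat5b in beads had 67.7 to 94.5 CPM in the 7 vehicle libraries and 80.1 to 116 CPM in the 7 leptin libraries, with 53.9 to 73.8 CPM in the depleted fraction. Stat2 had 11.8 to 22.5 CPM with vehicle and 16.4 to 23.9 CPM with leptin, and 15.0 to 20.7 CPM in the depleted fraction. Its 3 WT leptin libraries at 10 h (16.4 to 18.4 CPM) lay above the vehicle library (14.2 CPM), and the ob/ob leptin library (19.9 CPM) above its vehicle libraries (11.8 and 16.6 CPM). The same held for Stat5b, with 90.4 to 116 CPM against 83.6 CPM in WT beads and 80.1 CPM against 67.7 and 71.6 CPM in ob/ob beads. It did not hold for Stat5a or Stat6, and the share of all genes with this pattern was not counted. With a single library in an arm of each genotype at 10 h, this order cannot decide if the arms differ. Neither Stat2 nor Stat5b passed the threshold there. Stat6, which answers to interleukins made by immune cells, had 5.69 to 10.3 CPM with vehicle and 6.03 to 8.87 CPM with leptin. Stat5a had 3.92 to 5.86 CPM with vehicle and 2.58 to 5.88 CPM with leptin, the lowest value being that of WT 3 h leptin lysate m24.

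**Figure D2:**
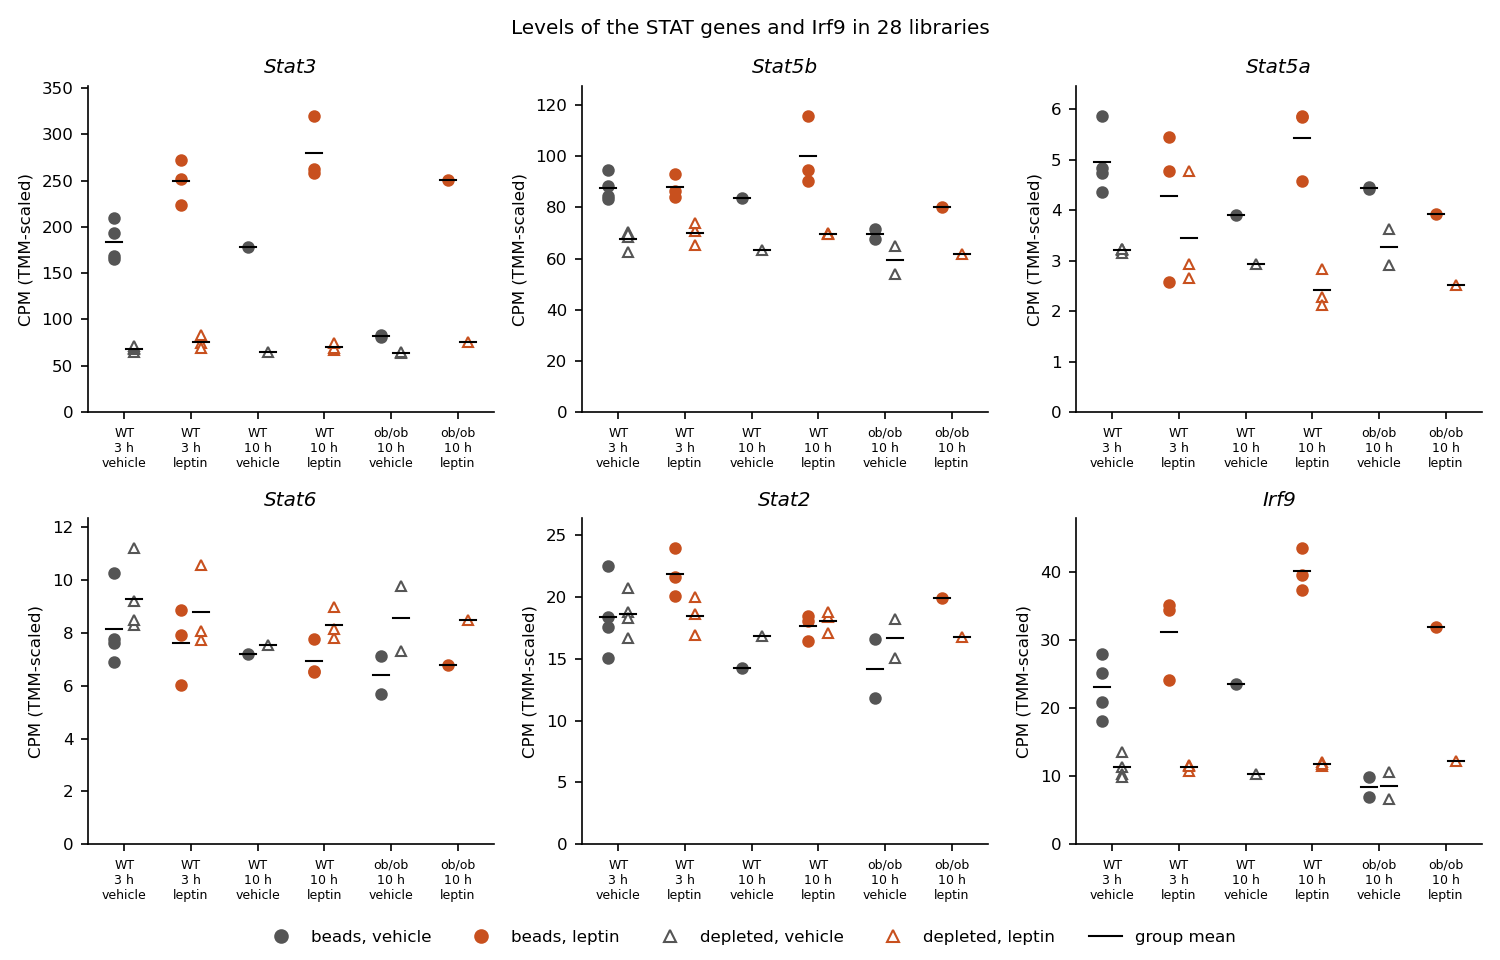
CPM scaled by TMM (y axis, from 0) of the 6 genes in each library, grouped by genotype, time and treatment; filled circles are bead and open triangles depleted libraries, grey vehicle and orange leptin, bars group means. Stat3 in beads runs from 165 to 210 CPM in WT 3 h vehicle and from 223 to 273 CPM in WT 3 h leptin libraries, and from 81.6 to 83.3 CPM in ob/ob vehicle libraries against 250 CPM with leptin.

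At 3 h no member passed the threshold in beads, while 0.022% of all genes did. Stat3 was 1.35-fold higher by value (log2 fold change 0.43, SE 0.114, adjusted p = 0.656, edgeR) and so was Irf9 (0.43, SE 0.169, adjusted p = 0.656); these were the 2 members with an unadjusted p under 0.05, and DESeq2 and limma voom called none. Stat2 stood at 0.25 (SE 0.155), Stat5b at 0.00 (SE 0.105), Stat6 at -0.11 (SE 0.183) and Stat5a at -0.22 (SE 0.230). With both pituitary-rich lysates left out, Stat3 stood at 0.57 (adjusted p = 0.0796) and Irf9 at 0.63 (adjusted p = 0.122). With the letter m or f of the titles as a term, they stood at 0.44 (adjusted p = 0.365) and 0.51 (adjusted p = 0.386).

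At 10 h, taken as the mean of the WT and ob/ob effects, 2 members rose in beads, Stat3 (1.11, SE 0.13, adjusted p = 0.00388, edgeR) and Irf9 (1.33, SE 0.195, adjusted p = 0.0302), against 0.022% of all genes called. Stat2 stood at 0.38 (SE 0.174, adjusted p = 0.537), Stat5b at 0.22 (SE 0.117), Stat5a at 0.13 (SE 0.258) and Stat6 at 0.00 (SE 0.190). In ob/ob mice alone, Stat3 rose 3.01-fold (1.59, SE 0.178, adjusted p = 0.00241) and Irf9 3.72-fold (1.90, SE 0.271, adjusted p = 0.0181), with 0.0275% of all genes called. In WT mice alone Stat3 stood at 0.63 (SE 0.18) and Irf9 at 0.76 (SE 0.268), each with an adjusted p of 0.902. There 2 members had an unadjusted p under 0.05, edgeR, DESeq2 and limma voom called none, and 0.0% of all genes passed in edgeR. These 10 h effects each rest on a group with 1 library, the WT vehicle or the ob/ob leptin library, whose spread was assumed to be that of the other groups.

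The 10 h call of Stat3 held in each of the 12 fits that left out 1 lysate. That of Irf9 ended without WT 3 h vehicle lysate f3 (adjusted p = 0.0622) and without WT 10 h leptin lysate 1, 2 or 3 (0.0821, 0.0661 and 0.0766), and also with library totals (0.0629) and limma voom (0.0587). In ob/ob mice alone the Irf9 call ended when either vehicle lysate was left out (adjusted p = 0.116 and 0.0853) and with limma voom (0.14), while Stat3 kept its call in all 13 such fits. By value, glial markers were lower with leptin in the same libraries, though no astrocyte, oligodendrocyte or microglia marker passed at 10 h in beads. At 3 h the glial index overlapped between the arms, with 4.12 to 5.26 for vehicle and 3.95 to 4.69 for leptin. At 10 h it was 4.49 in the WT vehicle library against 3.51 to 3.77 with leptin. In ob/ob libraries it was 4.26 to 4.86 with vehicle against 3.78 with leptin. Summed astrocyte markers were at 1020 CPM against 796 to 877 CPM in WT beads and at 1060 to 1370 CPM against 850 CPM in ob/ob beads, oligodendrocyte markers at 2120 against 1140 to 1290 CPM and at 1910 to 2700 against 1540 CPM, and microglia markers at 55.6 against 26.6 to 37.1 CPM and at 40.5 to 64.0 against 27.8 CPM. With the index as a covariate the 10 h values were 0.93 for Stat3 (adjusted p = 0.0504, edgeR) and 1.09 for Irf9 (adjusted p = 0.232), so both calls ended. Of all genes tested 0 passed in that fit, against 4 without the covariate, so every call ended and not only those of Stat3 and Irf9. In ob/ob mice alone they were 1.41 for Stat3 (adjusted p = 0.0128), still called, and 1.66 for Irf9 (adjusted p = 0.187).

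**Figure D3:**
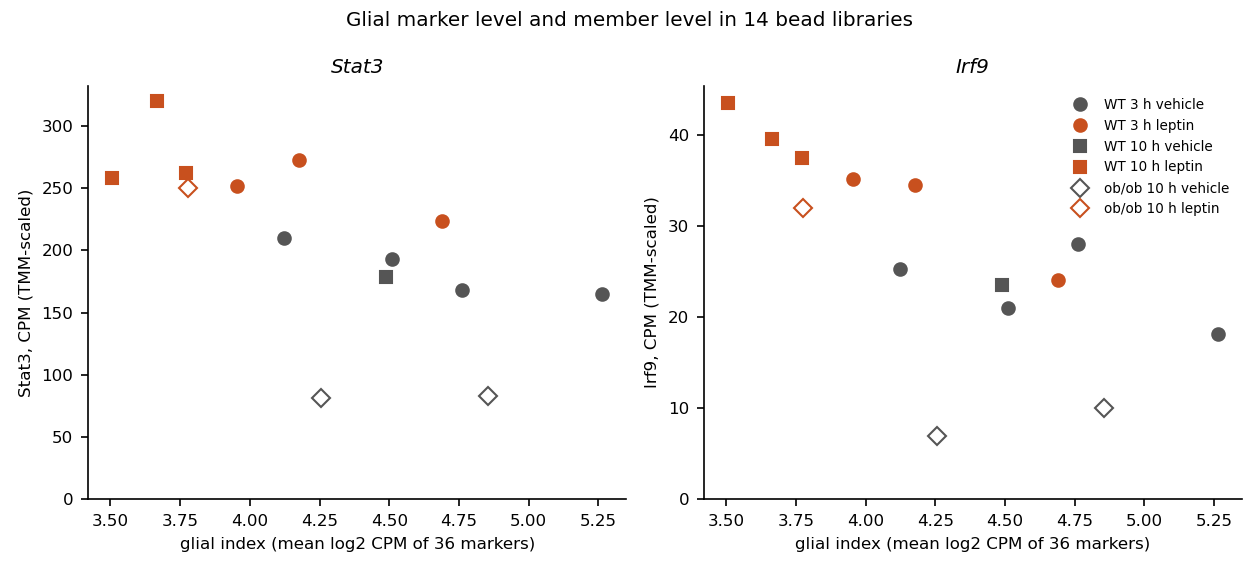
CPM of Stat3 and Irf9 (y axes, from 0) against the glial index (x axis, mean log2 CPM of 36 markers) in 14 bead libraries; circles are WT 3 h, squares WT 10 h, open diamonds ob/ob 10 h, grey vehicle and orange leptin. Both genes are higher where the index is lower, and the 2 ob/ob vehicle libraries, with an index of 4.26 and 4.86, lie below WT libraries of the same index.

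A single leptin effect over the 3 strata of genotype and time was 0.74 for Stat3 (SE 0.139, adjusted p = 0.0552, edgeR) and 0.83 for Irf9 (SE 0.189, adjusted p = 0.147), with 0.022% of all genes called. No member passed in edgeR, and 3 members (Stat3, Irf9 and Stat2) had an unadjusted p under 0.05. DESeq2 called Stat3 and Irf9 among 133 genes in all, and limma voom called no member. Stat3 passed without WT 3 h vehicle lysate m3 (0.79, adjusted p = 0.0278) or leptin lysate f2 (0.82, adjusted p = 0.0211), and Irf9 without leptin lysate f2 (0.96, adjusted p = 0.0392); without the single ob/ob leptin lysate they stood at 0.49 (adjusted p = 0.187) and 0.53 (adjusted p = 0.356). With the letter of the 3 h titles as a term both passed (adjusted p = 0.0393 and 0.048). With the glial covariate both stood at 0.53. Stat2, the partner of IRF9, stood at 0.30 (SE 0.11, adjusted p = 0.33), Stat5b at 0.10 (SE 0.0787), Stat5a at -0.06 (SE 0.177) and Stat6 at -0.06 (SE 0.128).

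Whether the leptin effect differed between times or genotypes was tested directly. Between 10 h and 3 h in WT beads it differed by 0.20 for Stat3 (SE 0.209) and 0.32 for Irf9 (SE 0.310), with every member at an adjusted p of 0.993 or above, no member at an unadjusted p under 0.05, and 0.0% of all genes called. Between ob/ob and WT at 10 h it differed by 0.95 for Stat3 (SE 0.249) and 1.14 for Irf9 (SE 0.372), both with an unadjusted p under 0.05 and an adjusted p of 1.0, and again 0.0% of all genes called. DESeq2 and limma voom called no member in either test. WT beads at 10 h against 3 h gave no member past the threshold (0.0% of all genes called), with 1 member, Stat2 at -0.34 (SE 0.144, adjusted p = 0.25), at an unadjusted p under 0.05 and none called by DESeq2. In the depleted fraction of the same mice 7.18% of all genes were called and no member, by edgeR or DESeq2, with none at an unadjusted p under 0.05.

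**Figure D4:**
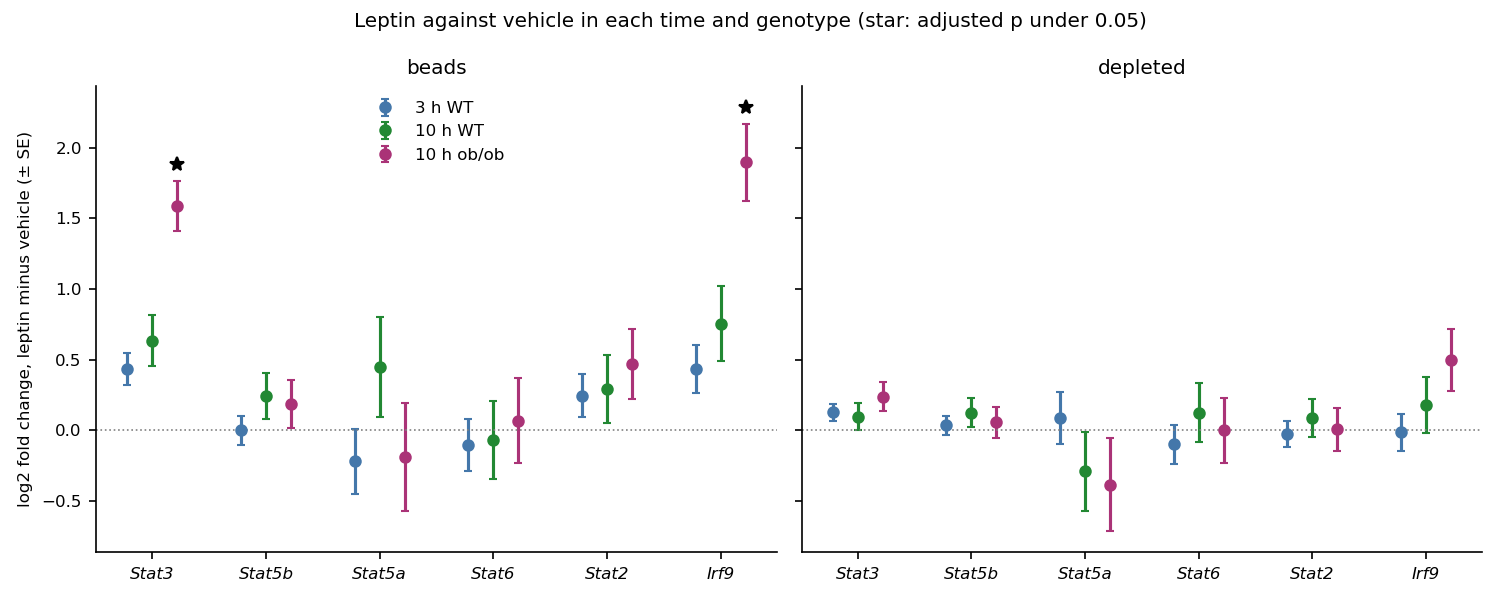
Log2 fold change of leptin against vehicle (y axis; error bars, SE from edgeR) for the 6 genes in WT mice at 3 h, WT mice at 10 h and ob/ob mice at 10 h, in bead libraries (left) and depleted libraries (right); a star marks an adjusted p under 0.05. Only Stat3 (1.59) and Irf9 (1.90) in ob/ob beads carry a star.

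In the depleted fraction no member passed at 3 h, at 10 h or over all strata, where 0.0%, 0.00523% and 0.623% of all genes were called by edgeR. At an unadjusted p under 0.05 there were 0, 2 and 1 members, and DESeq2 and limma voom called none. Stat3 stood at 0.13 (SE 0.0635) at 3 h and 0.17 (SE 0.0709) at 10 h, and Irf9 at -0.01 (SE 0.132) and 0.34 (SE 0.15). The difference between the fractions in the leptin effect was then tested within lysates. At 10 h it was 0.95 for Stat3 (SE 0.137, adjusted p = 0.0553, edgeR) and 0.99 for Irf9 (SE 0.161, adjusted p = 0.0741). DESeq2 called Stat3 and Irf9 among 47 genes in all, and limma voom called no member. In edgeR no member and 0.0% of all genes were called, with 3 members at an unadjusted p under 0.05. Stat3 passed when WT 3 h vehicle lysate m3 or f1, WT 3 h leptin lysate f2 or f4 or ob/ob vehicle lysate 1 was left out (adjusted p from 0.00578 to 0.0393), and Irf9 without leptin lysate f2 (0.0231) or ob/ob vehicle lysate 1 (0.0243). Of all 19682 genes tested, Stat3 had the smallest p in that test. At 3 h it was 0.31 for Stat3 (SE 0.124) and 0.43 for Irf9 (SE 0.141), each with an adjusted p of 0.992, with 2 members at an unadjusted p under 0.05, none called by DESeq2 or limma voom, and 0.0102% of all genes called by edgeR. Over all strata it was 0.58 for Stat3 (adjusted p = 0.32, edgeR) and 0.65 for Irf9 (adjusted p = 0.128). DESeq2 called 2 members among 22 genes in all, and limma voom called no member. In edgeR 3 members had an unadjusted p under 0.05, and 0.0305% of all genes were called. Stat3 and Irf9 both passed in edgeR without WT 3 h leptin lysate f2 (adjusted p = 0.0312 and 0.0253). Without the ob/ob leptin lysate Stat3 stood at 0.38 and Irf9 at 0.47.

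Mice without leptin were compared with WT mice at 10 h. Averaged over vehicle and leptin, Stat3 was 1.55-fold lower in ob/ob beads (-0.64, SE 0.128, adjusted p = 0.0434, edgeR) and Irf9 stood at -0.90 (SE 0.192, adjusted p = 0.0638), with 1 member and 0.472% of all genes called. In vehicle libraries alone Stat3 was 2.16-fold lower (-1.11, SE 0.179, adjusted p = 0.0441) and Irf9 stood at -1.47 (SE 0.27, adjusted p = 0.063), with 0.0769% of all genes called. The WT vehicle group here is 1 library, which no fit could leave out and whose spread was assumed to be that of the other groups. Both ob/ob vehicle libraries lay below the 12 other bead libraries for Stat3, Irf9 and Stat5b, which held for 3.21% of all genes tested. Stat5b, at 67.7 and 71.6 CPM there against 83.6 CPM in the WT vehicle library, did not pass (-0.26, SE 0.168). Stat2, Stat5a and Stat6 stood at 0.00, 0.18 and -0.17 in the vehicle comparison.

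In the depleted fraction no member differed between ob/ob and WT mice by edgeR or DESeq2, none had an unadjusted p under 0.05, and 5.57% of all genes were called by edgeR. The Stat3 call in ob/ob beads, averaged over treatments, ended without WT 3 h vehicle lysate m1 or f3, WT 3 h leptin lysate f4, WT 10 h leptin lysate 2 or 3, or either ob/ob vehicle lysate (adjusted p up to 0.129), and with limma voom (0.0591). In vehicle libraries it ended without the same lysates other than WT 10 h leptin lysate 3, without WT 10 h leptin lysate 1 (adjusted p up to 0.254), and with limma voom (0.077). Irf9 passed in both comparisons without WT 3 h vehicle lysate f1 (adjusted p = 0.0305 and 0.0318) or leptin lysate f2 (0.0355 and 0.0252), and with the letter of the 3 h titles as a term (0.024 and 0.0256). The glial index of the ob/ob vehicle libraries (4.26 and 4.86) lay around that of the WT vehicle library (4.49), and with it as a covariate the vehicle difference was -1.09 for Stat3 (adjusted p = 0.00561) and -1.43 for Irf9 (adjusted p = 0.0263). Other markers moved with the genotype, averaged over treatments. Of 12 LepRb neuron markers 4 fell in ob/ob beads, 4 had a positive value and the median was -0.53, although their summed level was 2810 and 3600 CPM in ob/ob vehicle beads against 2650 CPM in the WT vehicle library. All 12 endothelial and mural markers (median 0.88) and all 12 astrocyte markers (median 0.27) had positive values and none passed, with 4 and 1 at an unadjusted p under 0.05. The part of these markers in the values of Stat3 and Irf9 was not tested.

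The make-up of the STAT family by per-length level, which rests on the same exon lengths, shifted with these groups. Stat3 made up 43.0 to 50.0% of the summed level of the 5 STAT genes in WT 3 h vehicle beads and 49.8 to 57.1% with leptin. At 10 h its share was 48.8% in the WT vehicle library and 54.9 to 56.1% with leptin. In ob/ob beads it was 33.1 and 34.2% with vehicle, where Stat5b made up 48.9 and 49.0%, and 56.9% with leptin, where Stat5b made up 31.3%. The Stat3 share in depleted libraries was 27.7 to 32.8% in all groups, so the ob/ob vehicle beads lay just above the depleted libraries and all other bead libraries well above them.

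Across bead libraries Irf9 followed Stat3. Their log2 CPM, taken as deviations from the mean of the genotype and time, correlated with Pearson's r = 0.922 and Spearman's rho = 0.873 over 14 libraries, and r was 0.821 without the 2 libraries farthest from the median of Stat3. Of 11550 other genes with at least 5 CPM in beads, Stat3 was the most like Irf9, and Irf9 ranked 6 among those most like Stat3. The libraries share the contrast of leptin with vehicle: as deviations from the mean of each treatment group, in the 12 libraries of groups with more than 1, r was 0.345 and rho 0.336. In the 11 WT bead libraries r was 0.803 (0.569 without the 2 farthest), and in the 14 depleted libraries it was 0.26. No p is given, since the pair was found by a search over all genes and depth, glial content and treatment are common to the points.

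**Figure D5:**
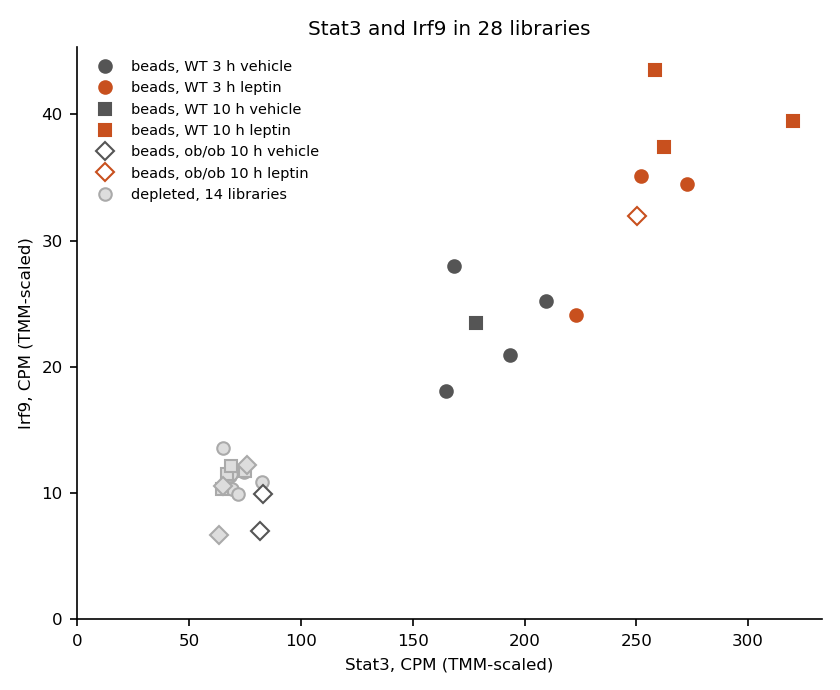
Irf9 (y axis) against Stat3 (x axis), both in CPM scaled by TMM, in 28 libraries; circles are WT 3 h, squares WT 10 h, diamonds ob/ob 10 h (open for beads), grey vehicle beads, orange leptin beads and light grey depleted libraries. The 2 ob/ob vehicle bead libraries (81.6 and 83.3 CPM of Stat3, 6.97 and 9.95 CPM of Irf9) lie next to the depleted libraries, and the leptin bead libraries lie at the upper right.

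The glial index correlated with Stat3 at r = -0.74 (rho -0.701) and with Irf9 at r = -0.699 (rho -0.78) over the same 14 bead libraries, and with Stat2 at r = -0.037. The genes most like Stat3 were Vwa5a (r = 0.954), Spred3 (0.953) and Tbx19 (0.931), and after Stat3 those most like Irf9 were Tbccd1 (0.921) and Sec22c (0.911). Vwa5a was at 38.3 CPM in beads and 12.7 CPM in depleted libraries on average, and was lower in ob/ob than in WT beads (-1.05, SE 0.164, adjusted p = 0.00915). For Stat2 they were Inpp4b (0.885), Heatr5a and Slx4, for Stat5b Fbxw8 (0.905), Midn and Zxdc, for Stat5a Eml3 (0.889), Dhx34 and Actr5, and for Stat6 Abhd14b (0.839), AC149090.1 and Cep250. Stat2 correlated with Stat3 at r = 0.572 and with Irf9 at 0.566, and Stat5b with Stat3 at 0.599. Stat5a and Stat5b, which arose by duplication, correlated at 0.385, and Stat5a with Stat3, its neighbour with shared exon bases, at -0.134.

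Genes that act with the members were read in the same fits, in which 0.022% of all genes passed for leptin in beads over all strata and 2012 of 18212 had an unadjusted p under 0.05. Among 23 receptors and kinases upstream of STATs none passed for leptin in beads over all strata (median log2 fold change -0.09, all genes 0.01), with 4 at an unadjusted p under 0.05 and Csf1r (-0.77) and Lifr (-0.37) at the largest values. Of 18 negative regulators 1 rose, Socs3, the inhibitor induced by STAT3 (2.14, SE 0.228, adjusted p = 0.0024), and the median was 0.08. In this list 15 had a positive value and 7 had an unadjusted p under 0.05, Cish and Socs2 (given below) among them. Among those that did not pass, Usp18, an interferon-induced inhibitor with a mean of 0.904 CPM in beads, stood at -1.01 (SE 0.471, adjusted p = 0.444). Socs1 stood at 0.78 (adjusted p = 0.174). Of 20 STAT3-responsive genes 3 rose, Socs3, the stress-response factor Atf3 (2.05, SE 0.263, adjusted p = 0.0105) and the RNA-binding protein gene Arid5a (1.47, SE 0.226, adjusted p = 0.0454), none fell, 15 had a positive value and the median was 0.51. At 3 h 4 genes of this list passed and at 10 h 2 did, each time out of 4 genes called in the whole table. Timp1, an inhibitor of metalloproteinases, passed at 10 h (3.25, SE 0.356, adjusted p = 0.00347). Junb (1.02, adjusted p = 0.271) and Fos (0.78, adjusted p = 0.506) did not pass. Glial genes such as Gfap and Serpina3n are also in this list, and it was drawn up with earlier results of these data known.

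Listed targets of STAT5 and of STAT2 with IRF9 did not pass, and no list of STAT6 targets was read. Of 8 tested STAT5-responsive genes none passed over all strata and 2 had an unadjusted p under 0.05, the STAT5-induced inhibitor Cish (0.68, SE 0.142, adjusted p = 0.0898) and Socs2 (0.60, SE 0.124, adjusted p = 0.0853); the median was 0.08. Of 28 tested interferon-stimulated genes none passed, only 4 had a positive value, 6 had an unadjusted p under 0.05, and the median was -0.34. Ifi44 (-1.94, SE 0.77, adjusted p = 0.377) and Bst2 (-1.05, SE 0.537, adjusted p = 0.493) had the largest values, and Irf7 stood at -0.34 (SE 0.218). Ifi44 and Bst2 were low in beads, with means of 0.254 and 1.46 CPM. The 12 microglia markers had a median of -0.78 in the same comparison. At 10 h the interferon-stimulated genes had a median of -0.14 with 11 positive values, while Irf9 was at 1.33. None of the 7 other interferon regulatory factors tested passed over all strata, with 1 at an unadjusted p under 0.05 and a median of -0.02. None of 10 STAT cofactors and transport factors passed either, with 1 at an unadjusted p under 0.05, a median of -0.02, Nmi at -0.20 and Crebbp at -0.16.

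Neighbouring genes were checked because of the shared exon bases. Rnf31, which overlaps Irf9, stood at 0.28 for leptin at 10 h in beads (SE 0.148, adjusted p = 0.592), where Irf9 was at 1.33, and its mean level in beads was 36.4 CPM. Stat5a, which overlaps Stat3, stood at 0.13 there, with Stat3 at 1.11. Cavin1, the nearest gene on the upper side of Stat3, stood at -0.21 (SE 0.303). Psme2, the nearest on the lower side of Irf9, stood at 0.26 (SE 0.192), and Nab2, which overlaps Stat6, at 0.12 (SE 0.194). Rec8, on the upper side of Irf9, lies nearer than Psme2 (8007 against 12458 bases), and its value is not given here.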

How the data were processed

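Counts were deposited by the authors as whole-number read counts per gene for 28 libraries of 55487 genes, not normalized; STAR 2.7.6a and GRCm38.p6 are named in the submitters' processing notes, while for the counting tool and its strand setting the sources used here give nothing. Poly(A) libraries were read for 50 cycles from 1 end, per the labels' protocols. Runs were taken from the deposited sample list. Gene names came from the table, and 55227 gene IDs were found in GENCODE M21, which gave positions and exon lengths.

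Members and lists were chosen with earlier results of these data known. Tests were two-sided edgeR 4.0.16 quasi-likelihood F tests (R 4.3.3, TMM scaling, a minimum of 10 counts in 3 or more libraries of the fit, Benjamini-Hochberg adjustment over all genes, threshold 0.05) with 1 coefficient per group within a fraction, a shared leptin term with 3 strata, or the lysate as a block between fractions. CPM were scaled by TMM over 28 libraries, and log2 CPM used a prior count of 2. The lysate pairing comes from the titles; bead and depleted deviations of the same lysate correlated at r = 0.081 to 0.33 and best with their own partner in 10 of 10 lysates that could be checked. All 6 members were named in every comparison; of each list, up to 4 genes past the threshold for leptin in beads and the 2 largest others were named, except 1 that is not reported here. Alternatives were DESeq2 1.42.0, limma 3.58.1 voom, other scaling, no filter, a glial covariate, no block, 1 time alone, lysates left out and, added after seeing the data, a term for the letter in the 3 h titles. The comparisons of 10 h leptin within a genotype, of vehicle groups and of the bead excess by group were added after seeing the data. Only the fits of leptin at 3 h and at 10 h in beads were tried on simulated data, and the outcome is not given here. The other fits were not simulated. No library was left out of the main tests.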

Additional observations from a re-analysis of the deposited data

How the results depend on the processing

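Of 2646 values of 126 member results under the alternatives, 2445 kept their direction and their side of the threshold, 55 newly passed, 31 no longer passed and 115, of 40 results, changed sign; in 114 of these neither value passed, and the other was Stat2 in the bead excess with library totals. Members called for leptin at 10 h in beads were 2, and 1 with library totals or limma voom, 0 with the glial covariate and 1 to 2 with 1 lysate left out. Over all strata in beads 0 were called, and 1 with DESeq2's size factors, 2 without a filter, with DESeq2, with the letter term or without the pituitary-rich lysates, and 0 to 2 with 1 lysate left out. For the difference between fractions at 10 h 0 were called, and 1 with library totals, 1 with no replicate block, 2 without a filter, with DESeq2 or without the pituitary-rich lysates, and 0 to 2 with 1 lysate left out; over all strata these were 0, and 2 in the same last 3 settings, and 0 to 2. Without the block, the count of members called stayed as it was in the other 5 blocked comparisons fitted both ways. For ob/ob against WT in beads 1 was called, and 2 without a filter, with DESeq2, without the pituitary-rich lysates, with the letter term or with the glial covariate, 0 with limma voom and 0 to 2 with 1 lysate left out. Over all genes, the calls moved with the settings too, given here with their lowest and highest: leptin in beads at 3 h 4 (2 to 191), at 10 h 4 (0 to 465), in WT mice 0 (0 to 184), in ob/ob mice 5 (2 to 136) and over all strata 4 (0 to 613); leptin in depleted libraries at 3 h 0 (0 to 640), at 10 h 1 (1 to 592) and over all strata 119 (0 to 1422). For the fraction differences they were 2 (0 to 79) at 3 h, 0 (0 to 370) at 10 h and 6 (0 to 245) over all strata. The time and genotype differences of leptin had 0 (0 to 70) and 0 (0 to 35), and WT beads at 10 h against 3 h 0 (0 to 1351). For ob/ob against WT they were 86 (40 to 394) in beads, 1064 (533 to 1901) in depleted libraries and 14 (1 to 152) for vehicle beads; for WT 10 h against 3 h in depleted libraries 1372 (577 to 2195); and for the bead excess of ob/ob vehicle lysates 6223 (334 to 7187) and its difference from WT 2 (0 to 51). The cause was not tested. Leptin at 10 h cannot be estimated without the WT 10 h vehicle or the ob/ob leptin lysate.

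The values that changed sign follow, as log2 fold changes. With DESeq2's size factors these values were -0.034 for Stat2 in the bead excess and 0.0038 for Stat5b in leptin at 3 h in beads. With library totals these values were -0.17 for Stat2 in the bead excess, -0.025 for Stat6 in leptin at 10 h in beads, -0.014 for Stat5a in WT at 10 h against 3 h in beads and 0.0090 for Stat2 in ob/ob against WT vehicle beads. Without a filter the value was -0.0087 for Stat2 in the bead excess. With DESeq2 these values were -0.034 for Stat2 in the bead excess and 0.0039 for Stat5b in leptin at 3 h in beads. With the glial covariate these values were 0.017 for Stat5b in leptin at 3 h in beads, 0.0059 for Stat6 in leptin at 3 h in beads, -0.21 for Stat5a in leptin at 3 h in depleted libraries, -0.064 for Stat5b in leptin at 3 h in depleted libraries, 0.13 for Stat5a in leptin over all strata in beads, 0.075 for Stat6 in leptin over all strata in beads, -0.0072 for Stat2 in leptin over all strata in depleted libraries, -0.016 for Stat5b in leptin over all strata in depleted libraries, 0.036 for Stat6 in leptin over all strata in depleted libraries, -0.051 for Stat5a in ob/ob against WT in depleted libraries, -0.018 for Stat3 in WT at 10 h against 3 h in beads, 0.17 for Stat6 in leptin at 10 h in WT beads and 0.20 for Stat5a in leptin at 10 h in ob/ob beads. In a fit of 1 time alone the value was 0.0067 for Stat5b in leptin at 3 h in beads. Without the pituitary-rich lysates these values were -0.21 for Stat5a in leptin at 3 h in depleted libraries, 0.014 for Irf9 in leptin at 3 h in depleted libraries, -0.0042 for Stat6 in leptin at 10 h in beads, -0.018 for Stat2 in leptin over all strata in depleted libraries and 0.039 for Stat6 in the fraction difference at 3 h. With the letter term these values were 0.027 for Irf9 in leptin at 3 h in depleted libraries and 0.00017 for Stat2 in ob/ob against WT vehicle beads. With 1 lysate left out, values that changed sign ran in the bead excess -0.027 to 0.028 for Stat2, in leptin at 3 h in beads -0.44 to 0.040 for Stat5a, -0.044 to 0.034 for Stat5b and -0.23 to 0.035 for Stat6, in leptin at 3 h in depleted libraries -0.086 to 0.033 for Stat2, -0.0042 to 0.083 for Stat5b, -0.25 to 0.0043 for Stat6, -0.073 to 0.086 for Irf9 and -0.21 to 0.24 for Stat5a, and in leptin at 10 h in beads -0.074 to 0.080 for Stat6. They ran in leptin at 10 h in depleted libraries -0.032 to 0.12 for Stat2 and -0.045 to 0.16 for Stat6, in leptin over all strata in beads -0.21 to 0.096 for Stat5a and -0.11 to 0.014 for Stat6, in leptin over all strata in depleted libraries -0.097 to 0.029 for Stat6 and -0.024 to 0.036 for Stat2, and in the fraction difference at 3 h -0.19 to 0.11 for Stat6. They ran in the fraction difference at 10 h -0.12 to 0.0011 for Stat6, in the fraction difference over all strata -0.13 to 0.025 for Stat6 and -0.20 to 0.19 for Stat5a, in the time difference of leptin -0.11 to 0.16 for Stat6 and -0.072 to 0.13 for Stat2, and in the genotype difference of leptin -0.12 to 0.047 for Stat5b, -0.048 to 0.44 for Stat2 and -0.024 to 0.30 for Stat6. They ran in ob/ob against WT in beads -0.049 to 0.20 for Stat2, in ob/ob against WT in depleted libraries -0.023 to 0.18 for Stat6, -0.31 to 0.030 for Irf9 and -0.0042 to 0.17 for Stat5a, in WT at 10 h against 3 h in beads -0.12 to 0.12 for Stat5a, and in WT at 10 h against 3 h in depleted libraries -0.051 to 0.028 for Irf9. They ran in leptin at 10 h in ob/ob beads -0.086 to 0.23 for Stat6, in ob/ob against WT vehicle beads -0.27 to 0.23 for Stat2, in the difference of the vehicle bead excess between ob/ob and WT -0.13 to 0.21 for Stat5a and -0.093 to 0.11 for Stat2, and in the bead excess of ob/ob vehicle lysates -0.087 to 0.051 for Irf9.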
